A study of Homo sapiens with 12 samples.

Results

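OSTM1, ABCB10, PPME1, ARID3B, AEBP1, ERRFI1, GLIPR2 and SEPTIN11 are 8 genes of 65975 in the expression table. They were chosen by their fall with KDM3A depletion in 1 or both rhabdomyosarcoma (RMS) lines of the study, so their changes between shRNAs are given below as a description and without a test. SEPTIN11 was found by its identifier, ENSG00000138758, because its symbol had been turned into a date in the deposited table, and the other 7 genes were found by symbol. RNA was sequenced from RD cells, an established line of fusion-negative RMS (FN-RMS), and from Rh30 cells, an established line of fusion-positive RMS (FP-RMS). Both lines had been made to carry a stable shRNA, which was either the control, Scramble, or KDM3A-sh2, directed against the histone demethylase KDM3A. There were 12 libraries in 4 groups of 3, and each subtype is thus represented by 1 line and the depletion by 1 shRNA. Separate cultures are not stated for the libraries within a group, so all p-values measure the spread between these libraries, which may be technical. The sample names of the 3 Rh30 Scramble libraries all end in 1, whereas those of the other groups end in 1 to 3, and their titles give replicates 1 to 3. The median SD of log2(FPKM + 1) between libraries, over 11017 genes, was 0.0762 in this group and 0.0632 to 0.0695 in the other 3, so these libraries were no more alike than those of the other groups.

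Levels are FPKM, a read measure corrected for gene length and library size, and can therefore be compared between genes. Summed FPKM was 1198300 to 1379197 per library, and 17473 to 17983 genes had at least 1 FPKM. FPKM do not hold the number of reads, but the spacing of the lowest values gave a depth relative to the median library of 0.860 (RD KDM3A-sh2 replicate 3) to 1.2 (RD Scramble replicate 2). Depth ran with the shRNA, as every KDM3A-sh2 library was shallower than every Scramble library of its line. It was 0.860 to 0.996 against 1.04 to 1.20 in RD and 0.946 to 0.995 against 1.004 to 1.024 in Rh30. The myogenic markers MYOD1, MYOG, DES, CDH15, CHRNA1 and PAX3 were expressed in both lines. MYF5 was listed at 0 in 11 of 12 libraries, and MYH3 averaged 106 FPKM in RD Scramble and 2.22 FPKM in Rh30 Scramble. The 4 endothelial and 4 haematopoietic markers reached at most 1.2 FPKM in any library. Of the epithelial markers, CDH1 stayed below 0.1 FPKM and KRT18 averaged 43.7 FPKM in RD Scramble.

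The 8 genes have known roles in different parts of the cell. OSTM1 is the small subunit that stabilises the lysosomal chloride/proton exchanger ClC-7 (CLCN7), and its loss causes osteopetrosis. ABCB10 is an ATP-binding cassette transporter of the inner mitochondrial membrane needed for haem synthesis, and PPME1 removes the methyl group from the catalytic subunit of the phosphatase PP2A. ARID3B is a DNA-binding protein of the ARID family, and AEBP1 encodes a secreted carboxypeptidase-like protein that binds collagen. ERRFI1 (MIG6) is a feedback inhibitor of the EGF receptor, GLIPR2 (GAPR-1) is a Golgi membrane protein of the CAP family that binds Beclin 1, and SEPTIN11 is a filament-forming GTPase.

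On GRCh38 the genes lie on 7 chromosomes. OSTM1 spans chr6:108041409-108165854 (minus strand), ABCB10 chr1:229516582-229558695 (minus), PPME1 chr11:74171099-74254703 (plus) and ARID3B chr15:74541177-74598131 (plus). AEBP1 spans chr7:44104361-44114562 (plus), ERRFI1 chr1:8004404-8026308 (minus), GLIPR2 chr9:36136536-36163913 (plus) and SEPTIN11 chr4:76949703-77040384 (plus). PPME1 shares 112 exon bases with C2CD3 and 166 with P4HA3 on the opposite strand, which averaged 27.7 and 4.74 FPKM. ERRFI1 shares 155 exon bases with an antisense gene that is not in the table. The sequencing was directional per the study's methods, but whether the counting used the strand is not given in the sources used here. The pseudogenes ABCB10P1, ABCB10P3 and ABCB10P4 averaged 0.133 FPKM or less, so they hold little signal beside ABCB10.

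KDM3A, the target of the shRNA, is given first as a check of the labels. It was expressed in RD cells at 35.8, 33.9 and 30.9 FPKM with Scramble and at 12.0, 11.2 and 13.4 FPKM with KDM3A-sh2, a residual level of 36.3%. In Rh30 cells it was expressed at 27.8, 29.2 and 32.0 FPKM with Scramble and at 13.7, 13.2 and 15.4 FPKM with KDM3A-sh2, a residual level of 47.6%. The groups did not overlap in either line, as the labels would have it. Its paralogs KDM3B and JMJD1C were at residual levels of 86.3% and 94.6% in RD and 90.9% and 107% in Rh30. Residual level here is the mean FPKM with KDM3A-sh2 as a percentage of the mean with Scramble in the same line.

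OSTM1 had the lowest residual level of the 8 genes in both lines. In Rh30 cells it stood at 54.6, 60.3 and 62.1 FPKM with Scramble and at 14.4, 14.5 and 14.7 FPKM with KDM3A-sh2. In RD cells it stood at 56.1, 53.4 and 48.0 FPKM with Scramble and at 19.0, 21.4 and 17.6 FPKM with KDM3A-sh2. Every KDM3A-sh2 library thus lay below every Scramble library of its line by a wide gap. The residual level was 24.7% in Rh30 and 36.8% in RD, and the log2 fold change was -1.95 (standard error 0.06) and -1.40 (standard error 0.09), where fold changes throughout are on the scale of log2(FPKM + 1). Ranked from the largest drop, OSTM1 was number 16 of 17803 genes tested in Rh30 and number 66 of 17988 in RD.

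ABCB10 was the least expressed of the 8 genes in RD and in Rh30. In RD cells its level was 9.57, 9.06 and 9.55 FPKM with Scramble and 4.00, 3.08 and 3.59 FPKM with KDM3A-sh2. In Rh30 cells it was 14.0, 13.4 and 15.3 FPKM with Scramble and 8.65, 8.49 and 9.60 FPKM with KDM3A-sh2. The groups did not overlap in either line, and the Rh30 libraries with KDM3A-sh2 came down only to the level of RD libraries with Scramble. The residual level was 37.9% in RD and 62.6% in Rh30, with log2 fold changes of -1.19 (standard error 0.10) and -0.62 (standard error 0.08). At these low levels the pseudocount matters: with 0.1 in place of 1 the RD value was -1.38.

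PPME1 was lower with KDM3A-sh2 in Rh30 cells alone. There it stood at 181, 188 and 184 FPKM with Scramble and at 76.5, 83.9 and 81.0 FPKM with KDM3A-sh2, a residual level of 43.6% and a log2 fold change of -1.19 (standard error 0.04). In RD cells it stood at 87.1, 80.5 and 84.5 FPKM with Scramble and at 91.7, 89.1 and 89.2 FPKM with KDM3A-sh2. The RD libraries with KDM3A-sh2 were all above those with Scramble, by a log2 fold change of 0.10 (standard error 0.04) and a residual level of 107%, and 28.1% of all genes tested in RD had groups apart in this direction. PPME1 is therefore no shared drop.

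SEPTIN11 was the most highly expressed of the 8 genes, above 97.9% of the genes tested in Rh30 Scramble and 98.4% in RD Scramble. In Rh30 cells it was measured at 520, 488 and 509 FPKM with Scramble and at 204, 194 and 209 FPKM with KDM3A-sh2. In RD cells it was measured at 620, 589 and 568 FPKM with Scramble and at 378, 360 and 344 FPKM with KDM3A-sh2. The groups were far apart in both lines, and the residual level was 39.9% in Rh30 and 60.9% in RD. In FPKM this was the largest loss among the 8 genes, 304 in Rh30 and 232 in RD, with log2 fold changes of -1.32 (standard error 0.04) and -0.71 (standard error 0.05).

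AEBP1 and GLIPR2 were both expressed more highly in RD than in Rh30. AEBP1 stood at 114, 116 and 129 FPKM with Scramble and at 82.6, 71.8 and 77.9 FPKM with KDM3A-sh2 in RD, and at 46.1, 49.7 and 45.8 FPKM and 25.2, 23.4 and 25.6 FPKM in Rh30. GLIPR2 stood at 70.2, 73.7 and 73.6 FPKM with Scramble and at 51.1, 52.7 and 50.2 FPKM with KDM3A-sh2 in RD, and at 40.0, 44.1 and 41.7 FPKM and 25.2, 26.0 and 24.5 FPKM in Rh30. For both genes the KDM3A-sh2 libraries of RD stayed above the Scramble libraries of Rh30. The residual level of AEBP1 was 64.6% in RD and 52.4% in Rh30, and that of GLIPR2 70.8% and 60.3%.

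ARID3B and ERRFI1 had the most even residual levels between the lines, apart by less than for any other of the 8 genes. ARID3B stood at 12.5, 13.0 and 12.9 FPKM with Scramble and at 7.16, 7.92 and 6.59 FPKM with KDM3A-sh2 in RD, and at 20.4, 22.4 and 20.8 FPKM and 14.0, 13.0 and 13.5 FPKM in Rh30, residual levels of 56.5% and 63.6%. ERRFI1 stood at 199, 200 and 192 FPKM with Scramble and at 166, 160 and 166 FPKM with KDM3A-sh2 in RD, and at 196, 197 and 206 FPKM and 154, 149 and 155 FPKM in Rh30. The groups did not overlap in any of these comparisons. The drop of ERRFI1 was the smallest of the shared ones, with residual levels of 83.3% and 76.2% and log2 fold changes of -0.26 (standard error 0.03) and -0.39 (standard error 0.04).

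**Figure D1:**
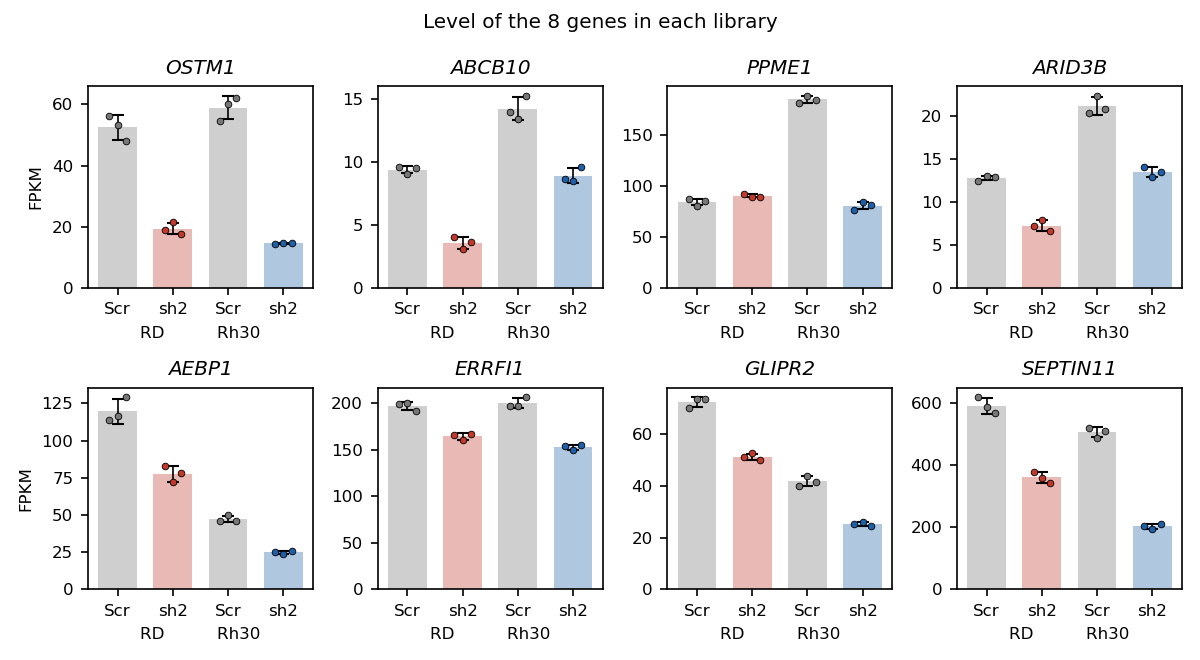
Level in FPKM of each of the 8 genes in the 12 libraries, with points for libraries, bars for the group mean and error bars for the SD over 3 libraries (Scr, Scramble; sh2, KDM3A-sh2). All genes but PPME1 in RD have their KDM3A-sh2 points below their Scramble points, and OSTM1 is at 24.7% of its Scramble mean in Rh30.

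In RD cells 7 of the 8 genes had KDM3A-sh2 libraries that all lay below the Scramble libraries, and in Rh30 cells 8 of 8. This was so for 25.3% of all genes tested in RD and 20.2% in Rh30. The residual level was under 50% for OSTM1 and ABCB10 in RD and for OSTM1, PPME1 and SEPTIN11 in Rh30, against 2.53% and 2.06% of all genes tested. Since these contrasts chose the genes, nothing can be read from these counts. In bulk RNA, fewer cells with a transcript and less of it per cell cannot be told apart.

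The size of the change differed between the lines in both directions, which is also given without a test. For PPME1 the log2 change in Rh30 minus that in RD was -1.29 (standard error 0.06), made of -1.19 in Rh30 and 0.10 in RD. SEPTIN11 and OSTM1 dropped further in Rh30, with differences of -0.61 (standard error 0.07) and -0.55 (standard error 0.11). AEBP1, GLIPR2 and ERRFI1 followed with -0.28 (standard error 0.09), -0.22 (standard error 0.06) and -0.13 (standard error 0.04). ABCB10 had the opposite sign, 0.57 (standard error 0.12), for a larger drop in RD. ARID3B was at 0.13 (standard error 0.09). Over all genes tested, 27.8% had a change that differed between the lines at an adjusted p under 0.05 by limma's interaction term. The 8 genes thus do not keep a common order between the lines.

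**Figure D2:**
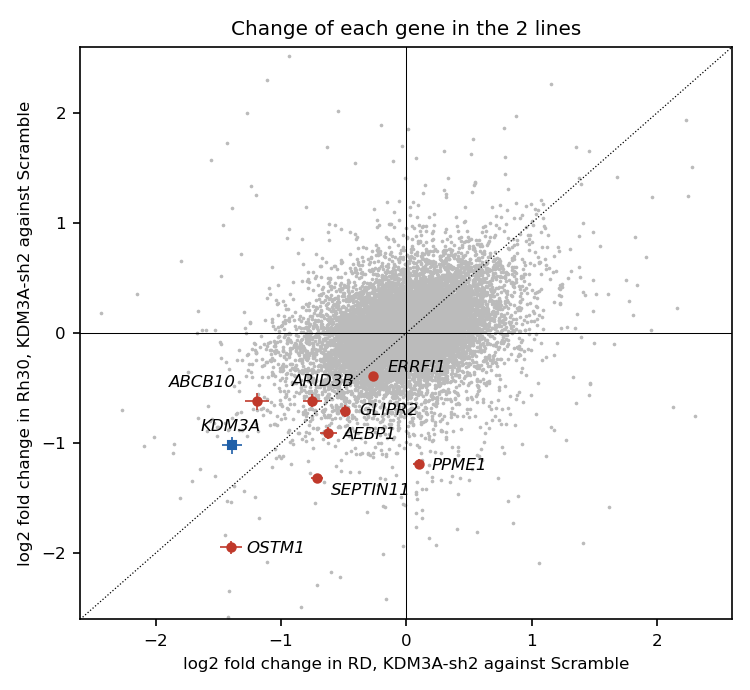
Log2 fold change of KDM3A-sh2 against Scramble in RD (x axis) and Rh30 (y axis) for 15970 genes tested in both lines (grey), the 8 genes (red circles with standard errors) and KDM3A (blue square). The dotted line marks equal change, and 13 genes lie outside the axes. OSTM1 and SEPTIN11 lie below that line, ABCB10 above it, and PPME1 near 0 on the RD axis.

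The levels of the 2 lines are set side by side without a test for the 8 genes, since they come from the libraries that chose them. With limma on log2(FPKM + 1), 74.5% of the genes tested differed between Rh30 and RD with Scramble and 78% with KDM3A-sh2, at an adjusted p under 0.05 in either direction. A difference between lines is thus the rule. Rescaling each library to the same sum moved the median of all genes for Rh30 against RD from -0.04 to -0.14 with Scramble and from -0.02 to -0.18 with KDM3A-sh2, so that differences of about this size depend on the scaling.

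With Scramble, AEBP1 and GLIPR2 were higher in RD. AEBP1 was 2.54 times as high in RD as in Rh30 (119.7 ± 8.33 against 47.2 ± 2.16 FPKM, SD, n = 3 each) and GLIPR2 1.73 times (72.5 ± 2.00 against 41.9 ± 2.06 FPKM). PPME1 was 2.20 times as high in Rh30 as in RD (184.7 ± 3.53 against 84.0 ± 3.36 FPKM). ARID3B was 1.66 times as high in Rh30 (21.2 ± 1.06 against 12.8 ± 0.261 FPKM) and ABCB10 1.52 times (14.2 ± 0.941 against 9.39 ± 0.290 FPKM). SEPTIN11 was lower in Rh30 by -0.23 on the log2 scale (standard error 0.04). The libraries of the lines did not overlap for these genes. The share of all genes without such overlap is not given here, so nothing is read from overlap between the lines, with Scramble or with KDM3A-sh2. For OSTM1 the libraries of the 2 lines overlapped and the difference was 0.17 on the log2 scale (standard error 0.07), 0.10 to 0.22 without 1 library and 0.06 after rescaling. The libraries overlapped for ERRFI1 too, at 0.02 (standard error 0.04), and its sign turned after rescaling (-0.09) and without Rh30 Scramble replicate 3 (-0.0016).

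With KDM3A-sh2 the order of the lines for PPME1 was the reverse of that with Scramble. The libraries of the lines, which had overlapped with Scramble for OSTM1 and ERRFI1, no longer did. Nothing is read from this, since the share over all genes is not given. OSTM1 was higher in RD (19.3 ± 1.91 FPKM) than in Rh30 (14.6 ± 0.147 FPKM), by -0.38 on the log2 scale for Rh30 against RD (standard error 0.07) and -0.54 after rescaling. PPME1, which had been higher in Rh30, was at 80.5 ± 3.73 FPKM in Rh30 and 90.0 ± 1.5 FPKM in RD, a difference of -0.16 (standard error 0.04) and -0.33 after rescaling. ABCB10 was 2.51 times as high in Rh30 as in RD (8.91 ± 0.603 against 3.56 ± 0.458 FPKM). SEPTIN11 was 1.78 times as high in RD, AEBP1 3.13 times and GLIPR2 2.03 times, and ARID3B 1.87 times as high in Rh30. ERRFI1 was at -0.11 for Rh30 against RD (standard error 0.03) and at -0.27 after rescaling. In the order of mean levels, SEPTIN11 and ERRFI1 were first and second of the 8 genes with Scramble in both lines and first and second with KDM3A-sh2 too, and ABCB10 was last in all 4 groups.

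**Figure D3:**
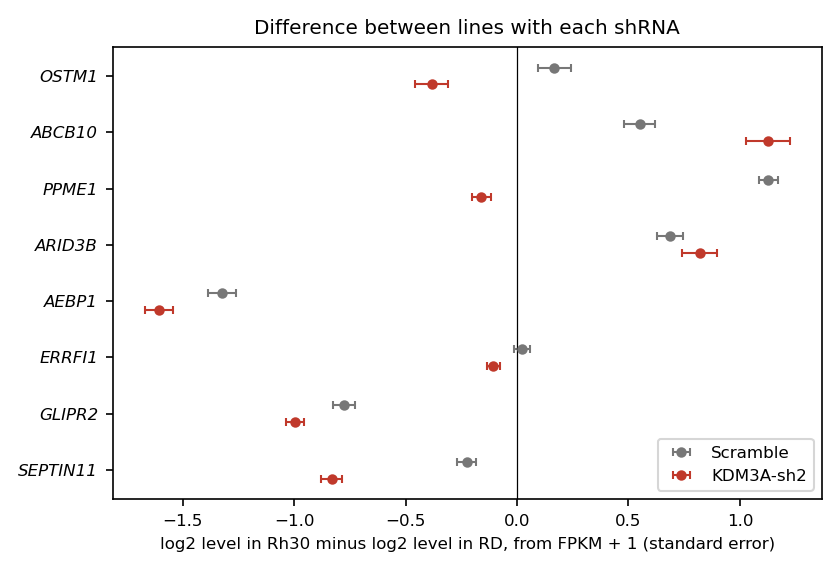
Difference in level between Rh30 and RD on the log2 scale for each of the 8 genes, with Scramble (grey) and with KDM3A-sh2 (red). Points are limma estimates from 3 libraries per group and bars their standard errors. PPME1 moves from 1.13 with Scramble to -0.16 with KDM3A-sh2, and ABCB10 from 0.55 to 1.12.

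The 3' untranslated regions (UTRs) of these genes were searched for 1 word of 7 bases, TGAAGCA. The word came from an earlier analysis of these data, so its presence in genes that fell is not independent evidence. Small RNAs, those made from shRNAs included, pair with mRNA through a short seed near their 5' end. The sequence of KDM3A-sh2 is not given in the sources used here, and whether it pairs with this word was not tested. In the longest 3' UTR annotated by GENCODE 29, OSTM1 held 3 matches, and ABCB10 and SEPTIN11 1 each. ERRFI1 held none in its longest 3' UTR and 1 in another of its 4 annotated 3' UTRs. PPME1, ARID3B, AEBP1 and GLIPR2 held none in any annotated 3' UTR. The matches are shown on the strand of the gene, 5' to 3', with the word in capitals.
OSTM1, base 1543 of 3376, chr6:108043224-108043253 (minus): ctgtcttgattTGAAGCAtatgattgagag
OSTM1, base 1567, chr6:108043200-108043229 (minus): tgagagccattTGAAGCAatcttcattaat
OSTM1, base 2121, chr6:108042646-108042675 (minus): ctttgggaggcTGAAGCAgatcgctggagc
ABCB10, base 494 of 1597, chr1:229517667-229517696 (minus): cgataatctcaTGAAGCAaacctaactatt
SEPTIN11, base 3944 of 4102, chr4:77038445-77038474 (plus): ttgtattgatgTGAAGCAtatcattttttc
ERRFI1, base 879 of 1491, chr1:8012313-8012342 (minus): ttacaaaataaTGAAGCAattagctatgtg

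The first matches of OSTM1 start 24 bases apart and both follow the letters ATT. Of 11253 genes tested in both lines with a 3' UTR of at least 50 bases, 16.9% held the word at least once and 0.595% held it 3 times or more. Among 1431 genes whose 3' UTR was within 20% of the length of that of OSTM1, 0.629% held 3 or more. The word was found at least once in 28.4% of these, in 13.7% of genes with a 3' UTR like that of ABCB10 and in 35.5% of those like that of SEPTIN11. A match in SEPTIN11 is thus not rare for its length.

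Over all these genes the median log2 fold change was 0.03 in RD and 0.04 in Rh30 for 9354 genes without the word. It was -0.06 and -0.06 for 1543 genes with 1 match, -0.07 and -0.12 for 289 genes with 2, and -0.06 and -0.17 for 67 genes with 3 or more. The median 3' UTR length of these classes rose as well, from 1177 bases without a match to 2952, 4357 and 7539 bases, so number of matches and length cannot be told apart here. Within the class of 67 genes, OSTM1 had the largest drop in Rh30 and the third largest in RD. OSTM1 was chosen for its drop, so nothing about the word can be read from this place.

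**Figure D4:**
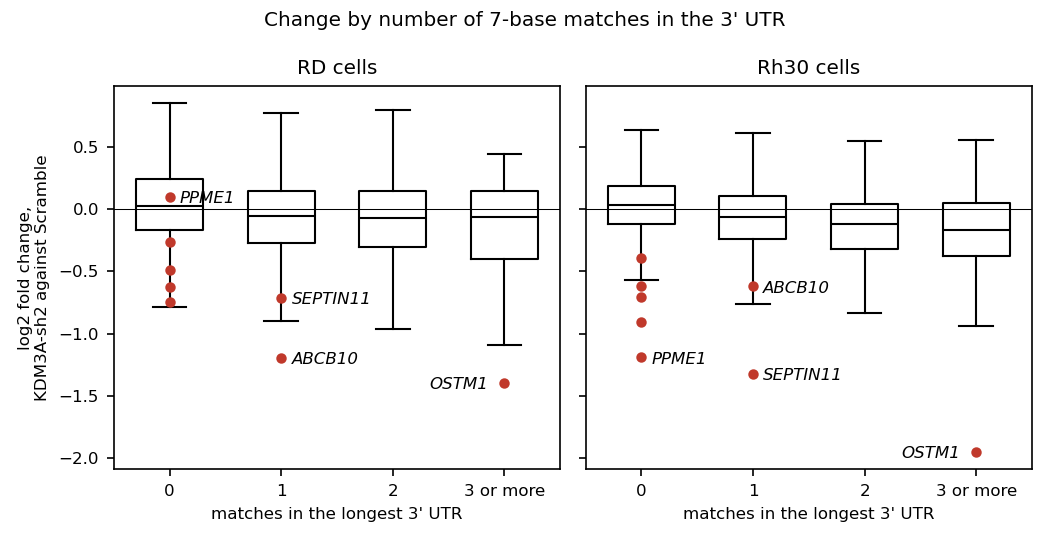
Log2 fold change of KDM3A-sh2 against Scramble in RD and Rh30 by the number of matches to the 7-base word in the longest 3' UTR, for 11253 genes. Boxes show the median and quartiles and whiskers reach 1.5 times the box, single genes beyond are not drawn, and red points are the 8 genes. The medians differ between classes by less than the width of a box. OSTM1, which was chosen for its drop, lies below the whisker of its class in both lines.

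The promoters were searched for CCGGAAG on both strands (CTTCCGG on the strand of the gene), a core of sites bound by ETS factors. RefSeq windows (GRCh38.p14) from 250 bases before to 50 after the start were at hand for 6 of the 8 genes. The starts are those of RefSeq. For OSTM1 and PPME1 they lie inside the GENCODE spans given above, as do the matches shown. Those of OSTM1 and PPME1 held the motif, and those of ABCB10, ERRFI1, GLIPR2 and SEPTIN11 did not. They are shown because the motif occurs in 10.3% of all promoter windows, and 2 or more times in 1.74%. The motif is in capitals, and a match is a description of these letters, not a bound site.
OSTM1, chr6:108074712-108074741 (minus), motif from base 12 after the start: gctcgcggaaaCCGGAAGcggcggctgtcc
PPME1, chr11:74171124-74171153 (plus), motif from base 154 before the start: gagcgctcctcCTTCCGGtgaaagtcgtcg
PPME1, chr11:74171216-74171245 (plus), motif from base 62 before the start: gctgttgcgcaCTTCCGGtggaagcgctga

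The pathways around the 8 genes were followed in 8 lists with 135 other genes. With limma, 18 of 114 genes tested were lower in RD and 47 higher, or 15.8% and 41.2%, where over all genes tested 19.5% were lower and 21.6% higher. In Rh30, 26 of 110 were lower and 27 higher, or 23.6% and 24.5%, where over all genes 13.2% were lower and 15.3% higher. Of all called genes, 52.5% were higher in RD, or 58.7% after rescaling, and 53.7% in Rh30, or 47.1% after rescaling, so the shares over all genes depend on the scaling. The median log2 fold change of the list genes was 0.12 in RD and 0.03 in Rh30, beside 0.01 and 0.03 over all genes. The Rh30 calls depend on single libraries: without Rh30 KDM3A-sh2 replicate 1, 3215 of all genes were called in place of 5066. With the replicate number as a block, 21 genes of the lists were lower and 17 higher in Rh30, and after rescaling 28 were lower and 22 higher. Over all genes in Rh30, 1623 of 17803 were lower and 1798 higher with the block. After rescaling, 2606 of 16836 were lower and 2319 higher. Calls were more frequent among genes with at least 10 FPKM in 1 library. Of these, 3029 of 11666 were lower and 3173 higher in RD, and 2084 of 11426 lower and 2177 higher in Rh30.

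**Figure D5:**
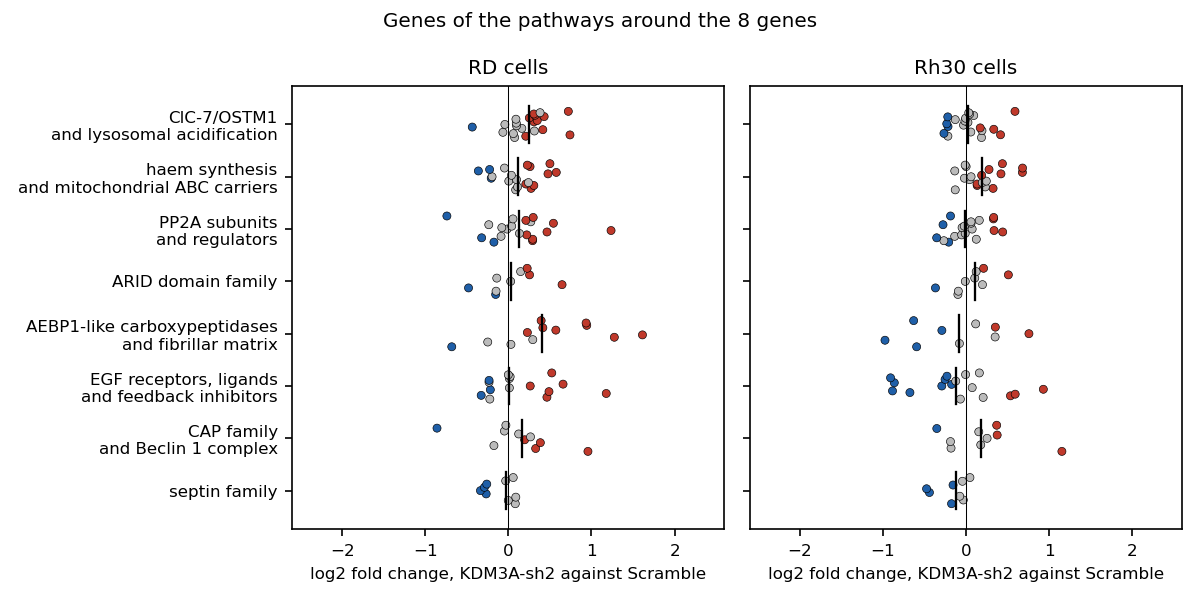
Log2 fold change of KDM3A-sh2 against Scramble for the genes of 8 lists in RD (left) and Rh30 (right). Each point is a gene, blue where called lower, red where called higher and grey where neither, and the black line is the median of the list. In the septin family 4 genes are lower and none higher in each line.

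Lysosomal acidification was measured with 22 genes around OSTM1. CLCN7, the exchanger that OSTM1 binds, did not pass the test in either line, with 67.5 ± 1.83 against 71.2 ± 4.57 FPKM in RD (0.08 on the log2 scale, limma's adjusted p = 0.315) and 26.3 ± 2.43 against 30.02 ± 2.24 FPKM in Rh30 (0.19, limma's adjusted p = 0.141). In RD 10 of 21 genes were higher and 1 lower (median log2 fold change of the list 0.25), and in Rh30 4 of 20 were higher and 4 lower (median 0.03). In Rh30 only 2 were higher under the replicate block and without Scramble replicate 1, KDM3A-sh2 replicate 1 or KDM3A-sh2 replicate 3. The exchanger CLCN4 had the largest rise of the list in RD (0.74) and rose by 0.42 in Rh30. PLEKHM1, which acts in lysosome fusion, had the largest rise in Rh30 (0.59, adjusted p = 0.0258 from limma) and rose by 0.72 in RD. The PLEKHM1 call was lost in Rh30 without Scramble replicate 1 (adjusted p = 0.052 from limma), KDM3A-sh2 replicate 1 (0.0724) or KDM3A-sh2 replicate 3 (0.0771). ATP6V0D1, a subunit of the proton pump, fell by -0.43 in RD and -0.22 in Rh30. CLCN5 fell by -0.26 in Rh30 and was at 0.06 in RD (adjusted p = 0.55 from limma).

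Haem synthesis and mitochondrial ABC carriers, the setting of ABCB10, leaned upward. In RD 8 of 19 genes were higher and 3 lower (median 0.11), and in Rh30 9 of 19 were higher and none lower (median 0.19). The Rh30 count depends on the fit, with 4 genes higher under the replicate block and 5 without Scramble replicate 1 or 3 or KDM3A-sh2 replicate 1, and without Scramble replicate 3 there was 1 lower. ABCB6 rose by 0.58 in RD and 0.68 in Rh30, and HMOX1, which breaks haem down, rose by 0.68 in Rh30 and was at -0.05 in RD (adjusted p = 0.409 from limma). ABCB8 fell by -0.23 in RD (adjusted p = 0.0134 from limma) and rose by 0.28 in Rh30 (adjusted p = 0.0273 from limma). The Rh30 call of ABCB8 was lost without Scramble replicate 1 (adjusted p = 0.0677 from limma) or 3 (0.0674) and without KDM3A-sh2 replicate 1 (0.0899) or 3 (0.0806). SLC25A37, the iron carrier that ABCB10 is known to stabilise, fell by -0.21 in RD and was at -0.02 in Rh30 (adjusted p = 0.842 from limma). FECH, which inserts the iron into haem, did not pass in either line (0.10 and 0.04).

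PP2A subunits and regulators, the setting of PPME1, moved in both directions. In RD 8 of 19 genes were higher and 3 lower (median 0.13), and in Rh30 4 were higher and 4 lower (median -0.01). The 4 lower genes became 2 without Scramble replicate 1 or KDM3A-sh2 replicate 2, under the replicate block, with no trend and with the gene-by-gene linear model. PPP2CA, a catalytic subunit of the kind from which PPME1 removes a methyl group, fell by -0.17 in RD and -0.21 in Rh30. The other catalytic subunit, PPP2CB, rose in RD from 179.8 to 220.6 FPKM (0.29, adjusted p = 0.00572 from limma). In Rh30 it was at -0.27 (adjusted p = 0.0504 from limma), and it passed without KDM3A-sh2 replicate 1 (-0.35, adjusted p = 0.019 from limma). PPP2CB also passed in Rh30 with a pseudocount of 0.1 (adjusted p = 0.0495 from limma) and a minimum of 10 FPKM (0.035). The same held after rescaling (0.0331) and in 1 fit over all libraries (0.0192). The scaffold PPP2R1A rose by 0.29 in RD and was at 0.13 in Rh30 (adjusted p = 0.0756 from limma). LCMT1, which adds that methyl group, was at 0.27 in RD (adjusted p = 0.0682 from limma) and at 0.06 in Rh30, and it passed in RD without KDM3A-sh2 replicate 3 (0.39, adjusted p = 0.0034 from limma). It also passed in RD with a minimum of 10 FPKM (adjusted p = 0.0465 from limma), after rescaling (0.0365) and in 1 fit over all libraries (0.0214). PPP2R5B, a regulatory subunit, rose by 1.24 in RD, from 10.4 to 25.8 FPKM, and PPP2R5A rose by 0.46 in RD and 0.44 in Rh30. CIP2A, an inhibitor of PP2A, fell by -0.74 in RD, and the scaffold PPP2R1B was at -0.35 in Rh30 (adjusted p = 0.0493 from limma). The PPP2R1B call in Rh30 was lost without any 1 of 5 libraries, at adjusted p = 0.0616 to 0.133 from limma (Scramble replicates 1, 2 and 3 and KDM3A-sh2 replicates 1 and 2). The Rh30 values of CIP2A (-0.18, adjusted p = 0.0262 from limma) and PPP2R5B (0.34, adjusted p = 0.0461 from limma) were called too. That of CIP2A was lost without Scramble replicate 1 or any KDM3A-sh2 replicate (adjusted p = 0.0556 to 0.0829 from limma) and that of PPP2R5B without Scramble replicate 2 or 3 or any KDM3A-sh2 replicate (0.0816 to 0.125).

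In the ARID family ARID3B was the member with the largest drop in both lines. ARID3B alone of the family was chosen for its fall, so nothing can be read from this place. ARID3A, its closest relative in the list, rose by 0.65 in RD, from 17.2 to 27.4 FPKM, and was at 0.20 in Rh30 (adjusted p = 0.279 from limma). ARID2, a subunit of a chromatin remodeller, fell by -0.48 in RD and -0.37 in Rh30, and ARID5A rose by 0.51 in Rh30 and by 0.25 in RD, a call lost without RD KDM3A-sh2 replicate 3 (adjusted p = 0.0506 from limma). In all, 2 of 9 genes were lower and 3 higher in RD (median 0.03), and 1 was lower and 2 higher in Rh30 (median 0.11). Without RD KDM3A-sh2 replicate 3 there was 1 lower and 1 higher in RD. The lower genes in RD also became 1 without any other library but Scramble replicate 2, after rescaling, with no trend and under the block, and the higher ones in Rh30 became 1 under the block and without any single library but Scramble replicate 2.

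In the list of fibrillar matrix and carboxypeptidase genes around AEBP1, 8 of 12 genes tested in RD were higher and 1 lower (median 0.40), or 2 lower with no trend, with the gene-by-gene linear model or in 1 fit over all libraries. None of the 4 carboxypeptidases tested in RD (CPXM1, CPD, CPZ and CPM) was among the higher ones. COL1A1, which encodes a chain of type I collagen, rose from 125 to 303 FPKM in RD (log2 fold change 1.27) and fell from 12.6 to 5.86 FPKM in Rh30 (-0.97). COL1A2 rose by 1.61 in RD, from 0.741 to 4.37 FPKM. At this low level the pseudocount matters, and the value ran from 1.47 to 2.40 over the alternatives. COL3A1 rose by 0.23 in RD and 0.76 in Rh30. CPXM1, a carboxypeptidase-like relative of AEBP1, fell by -0.68 in RD and was listed below 0.2 FPKM in Rh30. In Rh30 2 of 9 genes were higher and 4 lower (median -0.08), and the largest drop was that of COL1A1. The 4 lower genes became 2 without KDM3A-sh2 replicate 2 and 1 with the gene-by-gene linear model, where the call of COL1A1 was lost too (adjusted p = 0.0839). Summed FPKM of the 4 fibroblast markers moved with these genes in RD, with 297, 315 and 311 with Scramble and 410, 390 and 426 with KDM3A-sh2. The most abundant was THY1, at 283 and 332 FPKM on average, and LUM went from 20.7 to 71.9 FPKM. DCN went from 3.24 to 4.99 FPKM, and PDGFRA was low with both shRNAs, at 0.273 and 0.297 FPKM. None of the 4 was listed at 0. In Rh30 the sum was 13.7, 12.0 and 14.6 with Scramble and 17.4, 17.4 and 14.5 with KDM3A-sh2. Their part in the result was not tested.

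EGF receptors, ligands and feedback inhibitors, the setting of ERRFI1, moved in both directions. In RD 6 of 15 genes were higher and 3 lower (median 0.01), and in Rh30 3 of 17 were higher (5 in 1 fit over all libraries) and 8 lower (median -0.12). EGFR itself did not pass in either line, at -0.22 in RD (adjusted p = 0.0523 from limma) and -0.07 in Rh30. It passed in RD without Scramble replicate 3 (-0.27, adjusted p = 0.049 from limma) or KDM3A-sh2 replicate 3 (-0.28, adjusted p = 0.0378 from limma). EGFR also passed in RD with a minimum of 10 FPKM (adjusted p = 0.0388 from limma) and in 1 fit over all libraries (0.0448). ERBB2 rose by 0.46 in RD and was at 0.21 in Rh30 (adjusted p = 0.125 from limma, or 0.0374 in 1 fit over all libraries). ERBB3 rose by 0.54 in Rh30 and was at -0.33 in RD (adjusted p = 0.0316 from limma), where the call was lost without Scramble replicate 1 (0.0694) or 3 (0.0911) or KDM3A-sh2 replicate 1 (0.084) or 2 (0.0653). The RD call of ERBB3 was also lost after rescaling (adjusted p = 0.0512 from limma), with no filter (0.075) and with the gene-by-gene linear model (0.0853). The ligand HBEGF rose from 21.6 to 50.2 FPKM in RD (1.18) and fell from 10.7 to 5.33 FPKM in Rh30 (-0.88). NRG1, another ligand, rose by 0.49 in RD and 0.93 in Rh30. DUSP6, a phosphatase induced by ERK and acting on it, fell by -0.91 in Rh30 and was at 0.01 in RD (adjusted p = 0.775 from limma).

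The list around GLIPR2 had 15 genes of the CAP family and the Beclin 1 complex. In RD 4 of 10 were higher and 1 lower (median 0.16), and in Rh30 3 of 9 were higher and 1 lower (median 0.18). The 4 higher genes in RD became 2 with the gene-by-gene linear model, and in Rh30 1 was higher with a minimum of 10 FPKM, and 2 were lower after rescaling, with no filter or in 1 fit over all libraries. GLIPR1, a relative of GLIPR2 in the CAP family, rose by 0.96 in RD and 1.16 in Rh30, opposite in direction to GLIPR2. BECN1 rose by 0.38 in RD and was at 0.18 in Rh30 (adjusted p = 0.116 from limma). RUBCN, a negative regulator of the Beclin 1 complex, fell by -0.86 in RD and -0.35 in Rh30.

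The septins were the 1 list with no gene higher in either line. In RD 4 of 9 were lower (median -0.03) and in Rh30 4 of 8 (median -0.11). Under each alternative fit 3 or 4 were lower and none higher in either line, although after rescaling the median in RD turned to 0.0018. SEPTIN7, the subunit shared by septin filaments, fell from 311 to 255 FPKM in RD (-0.29, adjusted p = 0.000325 from limma) and from 215 to 154 FPKM in Rh30 (-0.47, adjusted p = 0.000572 from limma). SEPTIN6 fell by -0.34 in RD and -0.44 in Rh30. SEPTIN8 fell by -0.26 in RD and was at -0.15 in Rh30 (adjusted p = 0.0353 from limma), a call lost without any 1 of the 6 libraries (adjusted p = 0.0563 to 0.115 from limma). SEPTIN5 was at -0.27 in RD (adjusted p = 0.0205 from limma), a call lost without Scramble replicate 2 or 3 or KDM3A-sh2 replicate 1 or 2 (adjusted p = 0.0592 to 0.0689 from limma) and with the gene-by-gene linear model (0.0603). SEPTIN2 fell in Rh30 by -0.17 and was at 0.08 in RD (adjusted p = 0.138 from limma). SEPTIN9 was at -0.03 in RD and -0.04 in Rh30 and passed in neither. SEPTIN11, with -0.71 and -1.32, had a larger drop than any other septin tested in either line. It alone of the septins was chosen for its fall, so nothing can be read from this place.

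Genes with a profile like that of each of the 8 were sought over the 12 libraries. The measure was the root mean square difference of log2(FPKM + 1) after centring each gene on its mean, over 11016 genes that averaged 10 FPKM or more (11017 for ABCB10). Nearest to OSTM1 were TNNC1 (0.25) and MOCS2 (0.28), the widest distance of the 8 to a nearest gene. ABCB10 was nearest to PRC1 (0.10) and ETS1 (0.11), PPME1 to GPC4 (0.13) and HHAT (0.14), and ARID3B to RPL36AL (0.08) and TMEM98 (0.10). AEBP1 was nearest to LIMD2 (0.13) and IGFBP2 (0.13), GLIPR2 to TMEM245 (0.07) and TMSB4X (0.07), and SEPTIN11 to STK26 (0.18) and the pseudogene NUS1P1 (0.20). For PPME1, ARID3B, GLIPR2 and SEPTIN11, only 1 of the 2 was found again when the 4 group means were used in place of the libraries.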

How the data were processed

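Per the labels and the study's methods, alignment to GRCh38 used GSNAP and SAMtools, and Cufflinks gave the deposited FPKM of each gene. The annotation release is not given in the sources used here, and no count table was used. The deposited FPKM table had 66095 entries for 65975 identifiers. For 117 repeated identifiers, the entry highest on average was used, and the value 999999999, present in 17 genes and none of the 8, was treated as missing.

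Groups were compared with limma 3.58.1 in R 4.3.3 (lmFit, eBayes with trend) on log2(FPKM + 1), for genes averaging 1 FPKM or more in the 6 libraries (12 for the interaction of line and shRNA), two-sided, with Benjamini-Hochberg adjustment and a threshold of 0.05. Exact permutation of 3 against 3 libraries cannot go below 0.1, so smaller p-values rest on limma's model. The fits were tested on simulated data. For the 8 genes, the planned tests of Rh30 against RD are not used, since they rest on the libraries that chose the genes. Python 3.11.15, pandas 2.3.3, NumPy 2.4.6 and matplotlib 3.10.9 served for the rest.

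The 8 genes, the word and the lists were chosen with earlier results of these data known. Named by rule were the 8 genes, KDM3A and its paralogs, direct partners, the called gene with the largest change per list, line and direction, and the 2 nearest profiles. For the haem list and the profiles of ERRFI1, some results under this rule are not reported here. SEPTIN5, SEPTIN8, PPP2CB, CPD, CPZ and CPM were named after their values were seen. Positions and 3' UTRs came from GENCODE 29, and promoter windows from RefSeq. The alternatives were another pseudocount, other filters, rescaling, no trend, the gene-by-gene linear model on FPKM, 1 fit over all libraries, a replicate block, a 1.5-fold minimum and leaving out each library.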

Additional observations from a re-analysis of the deposited data

Results flagged for a closer look

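For PPME1 every KDM3A-sh2 library was below every Scramble library in Rh30 and above in RD, there by 0.10 on the log2 scale (standard error 0.04), and its log2 change in Rh30 minus that in RD was -1.29. This difference was not tested, since the gene was chosen on the changes it is made of.

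Among the genes of the lists, 44 of 115 tested (38.3%) had a change that differed between the lines by limma's interaction term over the 12 libraries, at an adjusted p under 0.05, beside 27.8% of all genes tested. Of the 38 genes named by rule, partly for the size of their change, there were 17. The widest difference of the log2 change (Rh30 minus RD) among these was that of COL1A1 at -2.25. The matrix genes COL1A2 and COL3A1 stood at -1.26 and 0.53, and CPXM1 at 0.61. CPXM1 is listed below 0.2 FPKM in Rh30, and its value was 0.23 and not called with a pseudocount of 0.1. Among EGF receptor genes, HBEGF stood at -2.06, DUSP6 at -0.92, ERBB3 at 0.86 and NRG1 at 0.44. Among PP2A genes, PPP2R5B stood at -0.90 and CIP2A at 0.55.

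In the haem and mitochondrial list HMOX1 stood at 0.73 and ABCB8 at 0.50. Among the septins SEPTIN2 stood at -0.26 and SEPTIN7 at -0.18. In the lysosomal list CLCN5 stood at -0.32 and ATP6V0D1 at 0.22, and in the Beclin 1 list RUBCN stood at 0.51. ATP6V0D1 (adjusted p = 0.0307 from limma) lost its call without 7 single libraries, 3 of Rh30 and 4 of RD (0.0584 to 0.0717), and RUBCN (adjusted p = 0.0262 from limma) without 6, 2 of Rh30 and 4 of RD (0.0534 to 0.0621). With all libraries kept, ATP6V0D1 also lost its call after rescaling (adjusted p = 0.0526 from limma), with no trend (0.054) and with no filter (0.051). RUBCN also lost its call with no filter (adjusted p = 0.0537 from limma). With the gene-by-gene linear model on unlogged FPKM the calls of SEPTIN7 (adjusted p = 0.712), NRG1 (0.126) and CIP2A (0.075) were lost.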

How the results depend on the processing

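Of 2111 values for single genes and lists under alternatives, 1976 kept their direction and side of the threshold or stayed within the spread, 82 lost a call, 14 gained one, 29 moved and 10 turned sign. Adding a minimum of 1.5-fold cut the called genes to 1772 in RD (7390 without it), 1120 in Rh30 (5066) and 8764 for Rh30 against RD with Scramble (13683). Leaving out 1 library gave 5984 to 6358 calls in RD, 3215 to 4071 in Rh30, 12913 to 13239 between lines with Scramble, 13937 to 14085 with KDM3A-sh2 and 4399 to 4757 for the difference of the changes. Signs turned only for values that had not passed a test or had none. After rescaling these were ERRFI1 for Rh30 against RD with Scramble (-0.089) and SEPTIN9 in RD (0.0018). Over the fits without 1 library, ERRFI1 for Rh30 against RD with Scramble ran from -0.0016 to 0.034, CLCN5 in RD from -0.024 to 0.11, DUSP6 in RD from -0.0049 to 0.025, EGFR in Rh30 from -0.107 to 0.011, FECH in Rh30 from -0.0073 to 0.116 and SLC25A37 in Rh30 from -0.066 to 0.011. The cause was not tested. Rescaling moved the share of higher genes among those whose change differed between lines from 51.7% to 40.7%.

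The replicate numbers did not pair the libraries in the same way in all comparisons. Deviations of same-numbered libraries correlated at -0.09, -0.05 and -0.08 in RD and -0.09, -0.25 and -0.19 in Rh30. Differently numbered pairs lay above these, at -0.0084 to 0.096 in RD and 0.00087 to 0.19 in Rh30. Between the lines same-numbered libraries correlated at 0.12, 0.03 and -0.13 with Scramble and at 0.08, 0.12 and 0.08 with KDM3A-sh2, so not every pair was over 0.1. Differently numbered pairs with KDM3A-sh2 reached at most 0.0016, below all same-numbered ones. With a replicate block 6259 genes were called in RD, 3421 in Rh30, 13544 and 14409 between lines and 4780 for the difference of the changes. In Rh30 the block ended the calls of ABCB8 (adjusted p = 0.0765), PLEKHM1 (0.0657), PPP2R1B (0.0928), PPP2R5B (0.0976), CIP2A (0.0535) and SEPTIN8 (0.103), and the gene-by-gene linear model ended the first 5 of these (0.0735, 0.0778, 0.139, 0.0897 and 0.0658) and that of ERBB3 (0.0653). With no filter the Rh30 calls of ABCB8 (adjusted p = 0.0585 from limma), PLEKHM1 (0.0743), PPP2R1B (0.117) and PPP2R5B (0.102) were lost too. The fit with no trend ended the Rh30 calls of PPP2R1B (0.0739) and CIP2A (0.0557). Rescaling ended that of PPP2R5B (0.0671), and 1 fit over all libraries that of CIP2A (0.0682). FPKM give no read numbers, so no counting interval could be set, and low genes such as ABCB10 are limited most.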
